A study of Mus musculus with 12 samples.

Results

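The 10 genes described here are the metallothioneins Mt1 and Mt2 and 8 genes of the response to oxidative stress: Hmox1, Nqo1, Gclc, Gclm, Txnrd1, Srxn1, Slc7a11 and Gpx3. They were chosen by symbol, with earlier results of these data known. Each was read from a probe set that the array annotation gives to that gene alone. Slc7a11 had more than 1 such probe set, and the one with the higher mean over all arrays was used. All 10 were measured, among 22180 genes with a probe set of their own. RNA came from 4 groups of 3 arrays each, all from C57BL/6 mice and freshly prepared: adipose progenitors (AP) from perigonadal visceral fat (VAT), AP from inguinal subcutaneous fat (SAT), unfractionated adipose tissue (AT) from VAT, and AT from SAT. AP are what magnetic beads left of the stromal-vascular fraction of several mice once lineage-positive blood cells and CD31-positive endothelial cells had been taken out, so AP were enriched by removal and not sorted on a progenitor antigen. The replicates are labelled biological, but the labels give neither sex nor age and do not say which animals went into which, so the p-values reflect only the scatter among the samples at hand.

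Metallothioneins are small, cysteine-rich proteins of the cytosol that bind zinc and copper and can scavenge oxidants. Their transcription is switched on by the zinc sensor MTF1, which binds metal response elements, and also by glucocorticoids and by cell stress. Most of the other genes are known targets of the transcription factor Nrf2 (gene Nfe2l2), which the adaptor Keap1 holds at low abundance until oxidants or electrophiles modify Keap1. Nrf2 then pairs with a small Maf protein on antioxidant response elements. Its targets make glutathione (Gclc and Gclm, the catalytic and modifier subunits of glutamate-cysteine ligase), bring in cystine for it (Slc7a11), keep thioredoxin and peroxiredoxins reduced (Txnrd1, Srxn1), reduce quinones (Nqo1) and degrade haem (Hmox1). Gpx3 is the secreted, selenium-containing glutathione peroxidase of plasma.

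The promoters of Mt1, Mt2, Srxn1 and Gclm are shown, each of which holds a match to the pattern marked in it. The choice does not follow the size of the differences. Gpx3, not shown, had a range of group means of 1.14, against 1.11 for Gclm and 0.63 for Srxn1. RefSeq gave a window of 300 bases, 250 before the start and 50 after it, for 8 of the 10 genes (build GRCm38.p6). Mt2 and Mt1 lie next to each other on chromosome 8 with no annotated gene between them. In their windows, capitals mark the core of the metal response element, searched on both strands as TGCACNC or TGCGCNC.
Mt1, chr8:94178839-94179138, plus strand: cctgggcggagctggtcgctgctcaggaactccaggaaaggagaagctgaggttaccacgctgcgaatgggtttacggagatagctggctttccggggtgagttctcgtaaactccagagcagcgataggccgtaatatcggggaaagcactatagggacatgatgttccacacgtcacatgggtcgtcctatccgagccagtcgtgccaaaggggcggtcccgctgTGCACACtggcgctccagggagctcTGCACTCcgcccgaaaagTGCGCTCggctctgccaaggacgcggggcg
Mt2, chr8:94172368-94172667, plus strand: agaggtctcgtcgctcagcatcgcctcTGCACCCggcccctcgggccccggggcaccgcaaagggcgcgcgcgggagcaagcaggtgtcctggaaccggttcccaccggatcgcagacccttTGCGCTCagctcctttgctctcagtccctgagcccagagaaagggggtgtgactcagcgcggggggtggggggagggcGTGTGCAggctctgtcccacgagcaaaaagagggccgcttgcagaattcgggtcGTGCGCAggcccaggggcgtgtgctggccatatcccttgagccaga
In the next pair, capitals mark the antioxidant response element core TGACNNNGC or the AP-1 site TGACTCA, each searched on both strands.
Srxn1, chr2:152105274-152105573, plus strand: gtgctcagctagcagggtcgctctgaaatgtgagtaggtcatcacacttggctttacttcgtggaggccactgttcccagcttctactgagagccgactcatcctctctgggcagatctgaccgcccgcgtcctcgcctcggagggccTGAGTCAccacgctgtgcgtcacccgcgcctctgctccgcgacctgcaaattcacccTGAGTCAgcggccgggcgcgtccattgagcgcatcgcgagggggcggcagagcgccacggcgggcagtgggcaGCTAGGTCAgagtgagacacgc
Gclm, chr3:122245307-122245606, plus strand: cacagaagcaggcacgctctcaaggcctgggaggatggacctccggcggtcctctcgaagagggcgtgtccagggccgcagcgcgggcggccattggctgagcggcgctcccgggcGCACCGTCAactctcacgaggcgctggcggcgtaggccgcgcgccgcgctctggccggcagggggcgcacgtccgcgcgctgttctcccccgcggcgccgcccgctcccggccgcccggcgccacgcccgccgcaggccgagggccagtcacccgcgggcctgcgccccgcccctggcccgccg

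The Mt2 window held 4 metal response cores, the outermost beginning at position -223 from the start, and the Mt1 window held 3. Among all 32851 windows of this length, 0.295% held at least 4 and 1.31% at least 3. The Gclm window also held 3, in a sequence with 79.7% G and C. The antioxidant core matched once each in the windows of Mt2, Gclm and Srxn1 and in 1 of the 3 windows of Txnrd1, and 12.4% of all windows held a match. In Mt2 that match, TGACTCAGC, overlaps an AP-1 site. Srxn1 held 2 AP-1 sites, against 0.222% of all windows with at least 2, and an antioxidant core after the start. None of the 3 patterns was found in the windows of Nqo1, Slc7a11 and Gpx3. A match only describes the letters of the window.

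The values are log2 RMA intensities, so a difference of 1 is a 2-fold difference, and levels of different probe sets are not compared with each other. A gene was called, and is said to have risen or fallen, where the limma fit across all genes gave a Benjamini-Hochberg adjusted p under 0.05. Array medians lay between 4.49 and 4.67, and replicates of a group correlated at 0.9869 to 0.9936 across genes, which are not independent replicates. Of 8 progenitor markers 7 were higher in AP than in AT over both depots, while all 9 adipocyte markers, all 10 macrophage markers and 6 of 8 endothelial markers were lower, with the endothelial receptor Tek higher (0.90, SE 0.17, adjusted p = 0.000406). Of the pericyte and smooth muscle markers 7 of 8 were higher in AP and 1 lower, and of the mesothelial markers 4 of 10 were higher and none lower, or 10 and 0 when arrays were scaled to housekeeping genes. The summed adipocyte signal was 2184 to 2667 in AP from VAT and 2145 to 2329 in AP from SAT, against 25153 to 26615 in AT from VAT and 22269 to 23106 in AT from SAT. The summed macrophage signal was 438 to 512 and 391 to 484 in AP from VAT and SAT, against 4194 to 4466 and 3784 to 6045 in AT from VAT and SAT. The highest macrophage sum and the highest progenitor sum of any AT array, 5237, were both in replicate 3 of AT from SAT. All 15 immediate early and dissociation stress genes were higher in AP, with a median log2 difference of 4.35. Of all genes 22.0% were called higher and 20.5% lower in AP over both depots. AP were dissociated with enzymes and AT was not fractionated, so handling and cell state cannot be told apart in any comparison of AP with AT. Nor, in such bulk samples, can fewer cells of a type be told apart from less RNA per cell.

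**Figure D1:**
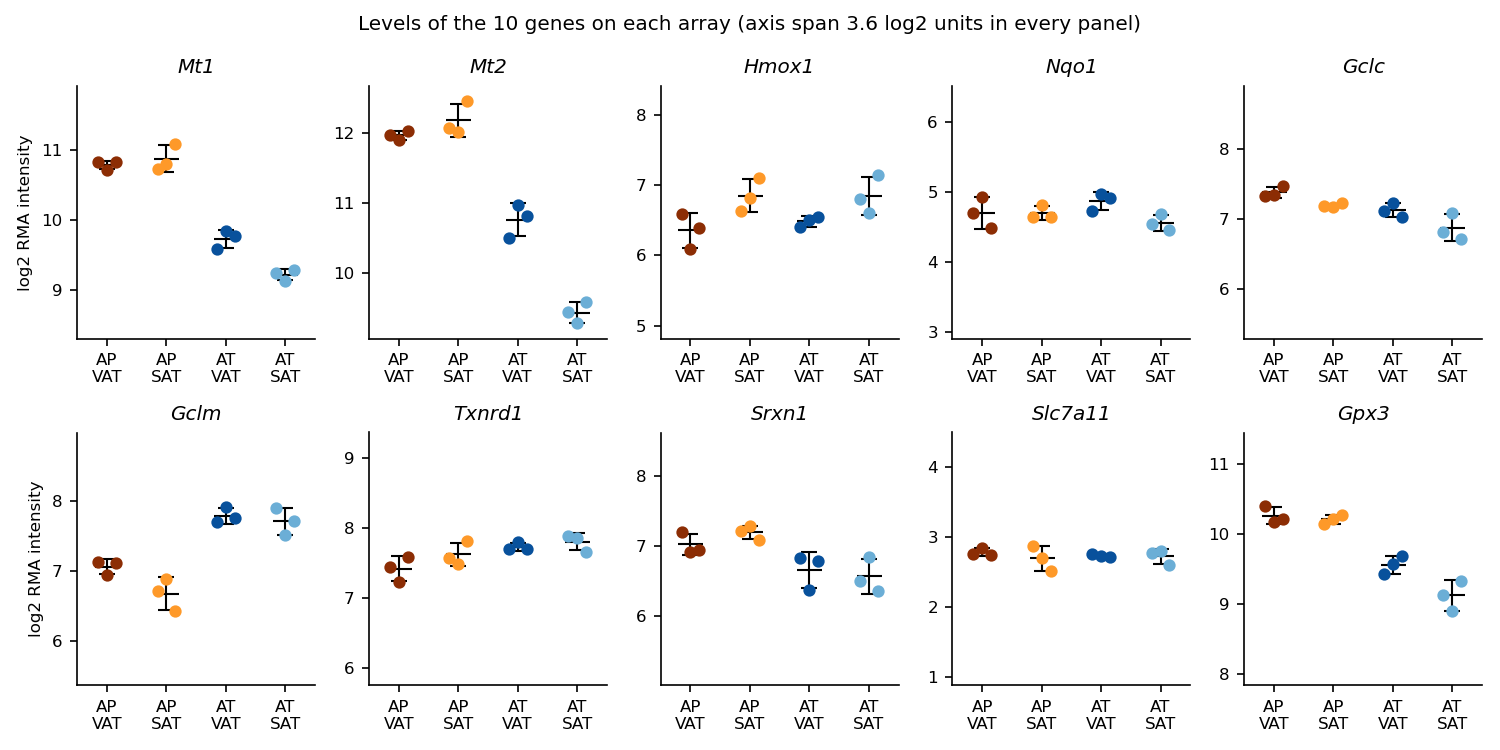
Each panel gives the log2 RMA intensity of a gene on the 12 arrays (points) with the mean and SD of the 3 arrays of a group (black), for AP from VAT, AP from SAT, AT from VAT and AT from SAT; every vertical axis spans the same 3.6 log2 units. Mt1, Mt2, Srxn1 and Gpx3 were higher on every AP array than on any AT array, Gclm was lower on every AP array, and Slc7a11 lay between 2.51 and 2.86 throughout.

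The metallothioneins were the genes of the set that differed most between the preparations. Mt2 had 11.96, 11.90 and 12.02 in AP from VAT and 12.06, 12.01 and 12.45 in AP from SAT, against 10.50, 10.97 and 10.81 in AT from VAT and 9.44, 9.28 and 9.58 in AT from SAT. Every AP value lay above every AT value, and the AT groups did not overlap with each other. In SAT, Mt2 averaged 12.17 ± 0.24 in AP and 9.43 ± 0.15 in AT (SD, n = 3 each), a rise of 2.74 (SE 0.14, 6.68-fold, adjusted p = 7.90e-10). This was the 57th highest difference of 22180 genes. In VAT, where AP averaged 11.96 ± 0.06 and AT 10.76 ± 0.24, the rise was 1.20 (SE 0.14, 2.30-fold, adjusted p = 6.96e-06).

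The group means of Mt1 had the same order over a smaller range. It had 10.82, 10.71 and 10.82 in AP from VAT and 10.73, 10.80 and 11.09 in AP from SAT, against 9.59, 9.84 and 9.77 in AT from VAT and 9.25, 9.13 and 9.28 in AT from SAT. Again the AP values overlapped between depots and the AT values did not. Mt1 rose in AP by 1.65 in SAT (SE 0.11, 3.15-fold, adjusted p = 2.11e-08) and by 1.05 in VAT (SE 0.11, 2.07-fold, adjusted p = 2.93e-06). The other metallothioneins on the array, Mt3 and Mt4, are known mainly from brain and from stratified epithelium, and were named after their values were seen. Mt3 was higher in AP by 0.22 over both depots (SE 0.07, adjusted p = 0.0271) and Mt4, below the 40th percentile of all probe sets in every group, by 0.01 (SE 0.10, adjusted p = 0.975).

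The depots differed for the metallothioneins in whole tissue. AT from VAT exceeded AT from SAT by 1.33 for Mt2 (SE 0.14, 2.51-fold, adjusted p = 3.50e-05) and by 0.51 for Mt1 (SE 0.11, 1.43-fold, adjusted p = 0.0154). The Mt1 call was lost without replicate 2 of AT from SAT or replicate 2 or 3 of AT from VAT (adjusted p of 0.0565 to 0.0605) and when arrays were scaled to housekeeping genes (0.38, adjusted p = 0.150). In AP, by contrast, VAT minus SAT was -0.21 for Mt2 (SE 0.14, 95% interval -0.51 to 0.09, adjusted p = 0.563) and -0.09 for Mt1 (SE 0.11, interval -0.33 to 0.15, adjusted p = 0.828). Taking the AT difference from the AP difference gave -1.54 for Mt2 (SE 0.20, adjusted p = 0.00085), which is also the rise in AP in VAT less that in SAT. For Mt1 it was -0.60 (SE 0.16) and did not pass (adjusted p = 0.0709, and 0.0368 with trend and robust options in the empirical Bayes step). These comparisons share arrays and are not independent of each other.

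Mt2 was the only gene of the 10 called in that interaction, against 2.15% of all genes in either direction and 1.16% with a negative value, and its value was the 46th lowest of 22180. Markers of the mesothelium, the lining of the visceral cavity, moved with the depots, since all 10 were higher in VAT in both preparations. Their summed signal was 3170 to 3902 in AT from VAT and 390 to 461 in AT from SAT. In AP it was 4502 to 6240 in VAT and 411 to 518 in SAT, where the Mt2 values of the depots overlapped. In AT, VAT was also called higher than SAT for 1 of 9 adipocyte markers, 3 of 8 pericyte and smooth muscle markers and 1 of 10 macrophage markers. It was lower for 1 marker each of the pericyte, macrophage and progenitor lists. None of the 8 endothelial markers was called, though all 8 had negative values, with a median of -0.31. Under the housekeeping scaling 1 pericyte marker was called higher in VAT and 1 lower. For the macrophage, progenitor and endothelial lists these counts were 0 and 2 each, and for the adipocyte list 1 and 0. Of all genes 5.64% were called between the depots in AP and 4.55% in AT, in either direction. The part of these cells in the Mt2 level was not tested.

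Mt2 and Mt1 did not change by equal amounts. The Mt2 value less the Mt1 value on the same array was 1.14 to 1.20 in AP from VAT, 1.21 to 1.36 in AP from SAT, 0.91 to 1.13 in AT from VAT and 0.15 to 0.30 in AT from SAT. The size of this difference depends on the probes and says nothing of which gene was the more abundant. AT from SAT stood below the other groups on all 3 arrays.

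**Figure D2:**
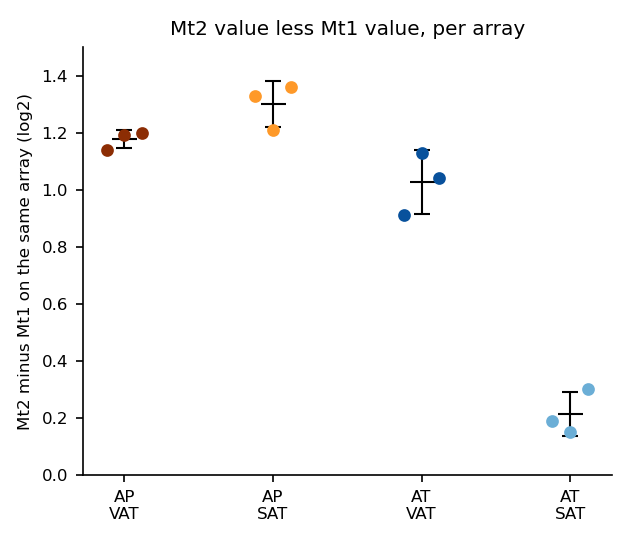
The Mt2 value less the Mt1 value on the same array (log2, vertical axis) is plotted for each of the 12 arrays by group, with the mean and SD of 3 arrays in black. The 3 arrays of AT from SAT lie at 0.15 to 0.30 and all other arrays at 0.91 or above.

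Gpx3 also rose in AP from both depots. It had 10.40, 10.17 and 10.22 in AP from VAT and 10.15, 10.21 and 10.27 in AP from SAT, against 9.43, 9.57 and 9.69 in AT from VAT and 9.14, 8.90 and 9.34 in AT from SAT. As for the metallothioneins, AP did not overlap with AT, the depots overlapped in AP, and AT from SAT was lowest. The rise was 1.08 in SAT (SE 0.12, 2.12-fold, adjusted p = 3.81e-06) and 0.70 in VAT (SE 0.12, 1.62-fold, adjusted p = 0.000309). In AT, VAT exceeded SAT by 0.44 without passing (SE 0.12, adjusted p = 0.0559), and the same difference was 0.54 (adjusted p = 0.0207) without replicate 3 of AT from SAT. It also passed with trend and robust options (adjusted p = 0.0305), under quantile normalization (0.43, adjusted p = 0.0444) and among genes above the 40th percentile (adjusted p = 0.0467). In AP that difference was 0.05 (SE 0.12, interval -0.21 to 0.31).

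Glutamate-cysteine ligase, the first and limiting enzyme of glutathione synthesis, had subunits that moved in opposite directions. The modifier subunit Gclm, which raises the activity of the enzyme, had 7.13, 6.94 and 7.12 in AP from VAT and 6.71, 6.89 and 6.43 in AP from SAT, against 7.70, 7.92 and 7.75 in AT from VAT and 7.90, 7.52 and 7.71 in AT from SAT. No AP value reached the lowest AT value. Gclm fell in AP by 1.03 in SAT (SE 0.13, 2.05-fold, adjusted p = 1.49e-05) and by 0.73 in VAT (SE 0.13, 1.65-fold, adjusted p = 0.000477). Scaling the arrays to 11 housekeeping genes shifted the whole distribution, with the median difference of all genes in VAT at 0.68 in place of 0.03. Under that scaling the Gclm difference in VAT was -0.08 and was not called (adjusted p = 0.610).

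The catalytic subunit Gclc ranged from 7.33 to 7.47 in AP from VAT and from 7.17 to 7.22 in AP from SAT, against 7.03 to 7.23 in AT from VAT and 6.72 to 7.09 in AT from SAT. Within each depot the AP values lay above the AT values, though by little. Gclc rose by 0.32 in SAT (SE 0.11, adjusted p = 0.0379), while its difference of 0.25 in VAT did not pass (SE 0.11, adjusted p = 0.0945). Over both depots Gclc was higher in AP by 0.29 (SE 0.08, adjusted p = 0.0074) and Gclm lower by 0.88 (log2 difference -0.88, SE 0.09, adjusted p = 1.22e-06). The Gclc call in SAT was lost without any single AP array from SAT or without replicate 1 or 3 of AT from SAT, with adjusted p of 0.0787 to 0.1565, and when only the groups compared were fitted (adjusted p = 0.0584). In VAT, Gclc passed under quantile normalization (0.37, adjusted p = 0.0148), cyclic loess (0.33, adjusted p = 0.0223) and the housekeeping scaling (0.90). In the depot comparison in AP, Gclm in VAT exceeded SAT without overlap, by 0.39 (SE 0.13), but did not pass (adjusted p = 0.127, and 0.0488 under cyclic loess).

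Among the enzymes that keep thiols of proteins reduced, sulfiredoxin and thioredoxin reductase differed in direction. Srxn1, which restores peroxiredoxins that peroxide has over-oxidised, had 7.20, 6.92 and 6.95 in AP from VAT and 7.22, 7.28 and 7.09 in AP from SAT. In AT it had 6.83, 6.37 and 6.79 in VAT and 6.51, 6.84 and 6.36 in SAT. All 6 AP values exceeded all 6 AT values, the nearest by 6.92 against 6.84. Srxn1 rose in AP by 0.63 in SAT (SE 0.15, 1.54-fold, adjusted p = 0.00325). In VAT the difference was 0.36 (SE 0.15, adjusted p = 0.0748), and it passed under quantile normalization (0.44, adjusted p = 0.0420), cyclic loess (0.42, adjusted p = 0.0456) and the housekeeping scaling (1.01).

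Txnrd1, the cytosolic thioredoxin reductase, ranged from 7.23 to 7.58 in AP from VAT and from 7.49 to 7.81 in AP from SAT, against 7.70 to 7.80 in AT from VAT and 7.66 to 7.89 in AT from SAT. Over both depots it was lower in AP by a log2 difference of -0.25 (SE 0.08, adjusted p = 0.0268), while it was higher by 0.28 (adjusted p = 0.0113) when arrays were scaled to housekeeping genes. That call was also lost under quantile normalization (adjusted p = 0.0826) and without any of 6 single arrays, AP from SAT replicate 1 or 2, AP from VAT replicate 2, AT from SAT replicate 1 or 2 or AT from VAT replicate 2 (adjusted p of 0.0546 to 0.0748). In VAT alone the difference of -0.32 had an adjusted p of 0.0548, and in SAT that of -0.18 had 0.299. The VAT difference passed with trend and robust options (adjusted p = 0.0488), among genes above the 40th percentile (0.0463) and when replicate 3 of either AP group was left out (0.0479 for SAT, 0.0273 for VAT), and was 0.33 under the housekeeping scaling.

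The remaining genes did not pass in any of the 6 contrasts of the reported fit. Hmox1, the inducible haem oxygenase, had 6.59, 6.09 and 6.39 in AP from VAT and 6.63, 6.82 and 7.10 in AP from SAT, against 6.40, 6.50 and 6.55 in AT from VAT and 6.80, 6.61 and 7.14 in AT from SAT. Its means in SAT were equal, 6.85 ± 0.24 in AP and 6.85 ± 0.27 in AT (SD, n = 3 each), with an interval of -0.34 to 0.34 for the difference. The VAT values lay below the SAT values in both preparations, by -0.49 in AP (SE 0.16, adjusted p = 0.0956) and -0.37 in AT (SE 0.16, adjusted p = 0.265), and neither passed. Over both depots AP minus AT was -0.06 (SE 0.11, adjusted p = 0.691), and 0.46 (adjusted p = 0.00211) when arrays were scaled to housekeeping genes.

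Nqo1, the quinone reductase often used as a readout of Nrf2, was measured near the median of the arrays, from 4.48 to 4.93 in AP from VAT, 4.64 to 4.82 in AP from SAT, 4.73 to 4.97 in AT from VAT and 4.45 to 4.68 in AT from SAT. AP minus AT over both depots was -0.01 (SE 0.09, interval -0.20 to 0.18, adjusted p = 0.935), and 0.51 (adjusted p = 0.000235) when scaled to housekeeping genes. In AT, VAT exceeded SAT without overlap by 0.31 (SE 0.12, adjusted p = 0.213). Slc7a11, the transport subunit of the cystine exchanger, had group means of 2.69 to 2.78 and lay below the 40th percentile of all probe sets (4.09) on every array. Its other probe set ranged from 2.59 to 2.85, so both gave values near background. Its AP minus AT difference was 0.01 over both depots (SE 0.08, adjusted p = 0.946), and 0.53 and called under the housekeeping scaling, where the median of all genes was 0.56.

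**Figure D3:**
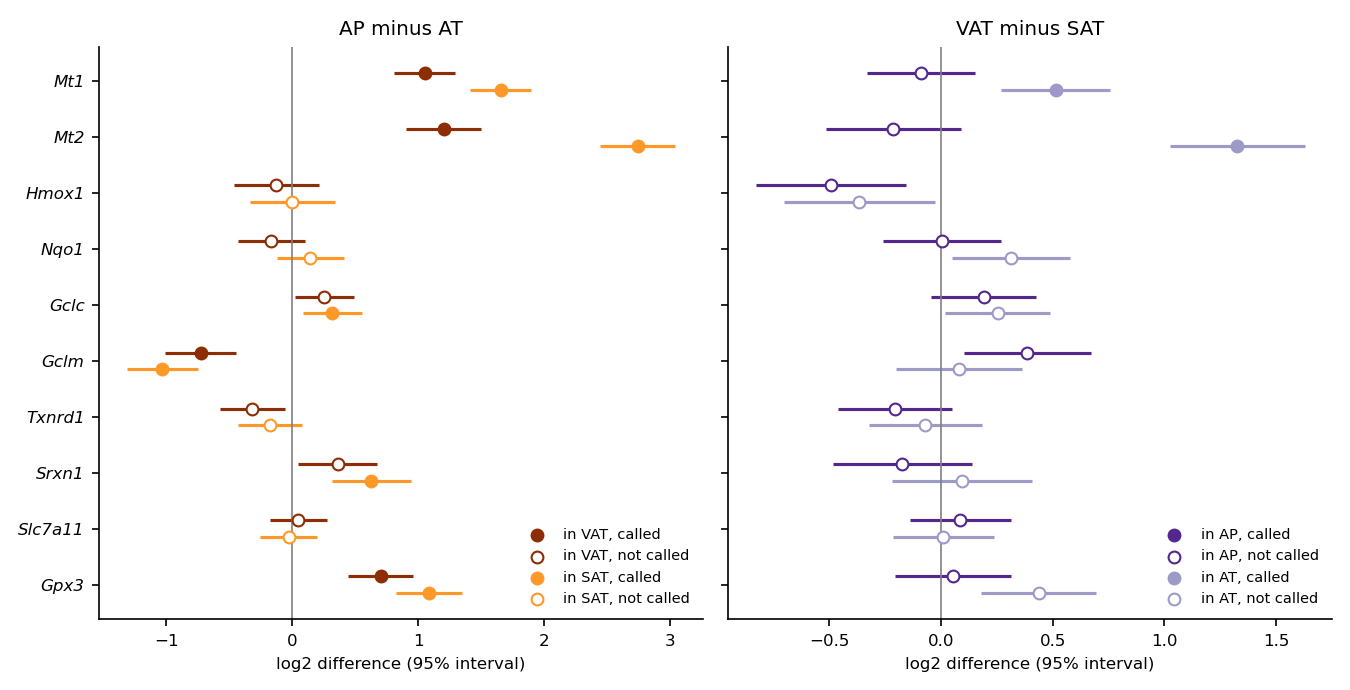
Fitted log2 differences (horizontal axis) with 95% intervals are shown for the 10 genes, on the left for AP minus AT in VAT and in SAT, on the right for VAT minus SAT in each preparation; filled points passed an adjusted p of 0.05. The differences in AP against AT reach 2.74 for Mt2 in SAT and -1.03 for Gclm in SAT, and no gene is called between the depots in AP.

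By the limma fit, 6 of the 10 genes were called between AP and AT in SAT, 5 higher and 1 lower, against 32.4% of all genes (16.1% higher and 16.3% lower). In VAT 4 were called, 3 higher and 1 lower, against 32.6% (15.8% higher and 16.8% lower). Over both depots 7 were called, 5 higher and 2 lower, against 42.5% (22.0% higher and 20.5% lower). Under the housekeeping scaling, 13829 genes were called higher and 1734 lower in SAT, 18063 and 1135 in VAT, and 18061 and 1631 over both depots. Of the 10 genes it called 7 higher and 1 lower in SAT, 9 and 0 in VAT, and 9 and 1 over both depots. The values of AP did not overlap with those of AT for 6 of the 10 in SAT, against 44.6% of all genes, for 7 in VAT, against 40.9%, and for 5 over both depots, against 23.5%. The median log2 difference of the 10 genes over both depots was 0.15, and that of all genes 0.04. Between the depots in AP, 0 of the 10 passed (2 had an unadjusted p under 0.05, and Gclm passed under cyclic loess), against 5.64% of all genes, and 3 did not overlap, against 20.4%. In AT the metallothioneins were the 2 genes called, both higher in VAT, against 4.55% of all genes in either direction and 2.80% higher in VAT, and 5 of the 10 did not overlap, against 18.1%.

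The order of the group means differed from gene to gene. Mt1, Mt2 and Srxn1 ran from AP from SAT down through AP from VAT and AT from VAT to AT from SAT, and Gpx3 was like them but with AP from VAT first. For these 4 genes the AP groups overlapped with each other, and for Srxn1 the AT groups did too. Gclm ran from AT from VAT and AT from SAT, which overlapped, down through AP from VAT to AP from SAT. In Gclc, AP from VAT was highest and AT from SAT lowest, while Hmox1 was ordered by depot and Txnrd1 by preparation. The range of group means was 2.74 for Mt2, 1.65 for Mt1, 1.14 for Gpx3, 1.11 for Gclm and at most 0.63 for the others.

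The genes most like a member were found by the root mean square difference over the 12 arrays, with each gene centred on its own mean, among 17248 other genes. Left out of these were predicted genes, RIKEN names, small RNA, olfactory and vomeronasal receptors and immune receptor segments. For Mt1 they were Emilin1 (0.117), Kremen1 (0.126) and Tns2 (0.145), against 0.71 for the spread of Mt1 itself. For Mt2, with a spread of 1.10, the nearest were farther away: Pdpn (0.264), Aebp1 (0.286) and Lbp (0.291). For Gpx3, with a spread of 0.49, they were Ptbp1 (0.0859), Foxj2 (0.0923) and Atn1 (0.0923). For Hmox1, with a spread of 0.28, they were Dhx58 (0.138), P2rx4 (0.152) and Kctd20 (0.170).

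The list counts that follow are to be read against those of all 22180 genes. Over both depots 22.0% of all genes rose in AP and 20.5% fell. Under the housekeeping scaling 18061 genes rose and 1631 fell. Between the depots 5.64% of all genes were called in AP and 4.55% in AT, in either direction. Regulators of the 10 genes moved in both directions in AP. Nfe2l2 itself rose by 0.79 over both depots (SE 0.08, adjusted p = 8.72e-07), and its small Maf partner Mafk by 1.24 (SE 0.09, adjusted p = 2.22e-08). Keap1 was at 0.04 (SE 0.08, adjusted p = 0.726), the competing repressor Bach1 rose by 0.33, and the ubiquitin ligase scaffold Cul3 fell by 0.66, though under the housekeeping scaling it was at -0.13 and not called. Of the 11 regulators 5 rose and 3 fell, or 9 and 0 under that scaling. Mtf1, the metal sensor, rose by 0.39 (SE 0.08, adjusted p = 0.000458). In its list of 17 metal response and transport genes 6 rose and 3 fell, or 15 and 0 under that scaling. The zinc importer Slc39a14 rose by 1.29 (SE 0.21), while the copper importer Slc31a1 was at -0.37 and the copper chaperone Atox1 at -0.36, values that became 0.15 and 0.17 under that scaling. The zinc importer Slc39a8 differed by depot in AP, by 1.85 (SE 0.17, adjusted p = 4.49e-06), and Atox1 by -0.63 (adjusted p = 0.00378).

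In the list of glutathione synthesis and recycling, 4 of 19 genes rose and 9 fell, or 9 and 5 under the housekeeping scaling. The cleavage enzyme Ggt5 rose most, by 1.59 (SE 0.12), and the cysteine-forming Cth fell most (-1.77, SE 0.12). Glutathione reductase Gsr (-0.78) and the peroxidases Gpx1 (-0.69) and Gpx4 (-0.96) fell while Gpx3 rose, although Gpx1 at -0.16 was not called under that scaling. Glutathione synthetase Gss (-0.08, adjusted p = 0.398) and Slc3a2, the partner chain of Slc7a11 (0.20, adjusted p = 0.0938), did not pass, but were called higher under that scaling (0.44 and 0.72). Of 16 glutathione transferases 7 rose, led by Gstm1 (0.75), and 8 fell, led by Gsta3 (-2.37), or 8 and 7 under that scaling. Both were higher in VAT than in SAT in AP, by 0.78 and 2.03, and in AT, by 0.44 and 1.67. Of the 16 transferases, 5 were higher in VAT in AP and 6 in AT, or 5 and 4 under that scaling, and none was lower in either.

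In the thioredoxin and peroxiredoxin list 3 of 16 rose and 11 fell (5 and 5 when scaled to housekeeping genes), from Txndc5 (0.84) to the mitochondrial peroxiredoxin Prdx3 (-2.14), with thioredoxin Txn1 at -0.05 (adjusted p = 0.672). The peroxiredoxins Prdx1, Prdx5 and Prdx6 had no probe set of their own and are not among the 16. The superoxide dismutases Sod1 (-1.53) and Sod2 (-1.59) and catalase Cat (-1.99) fell, and the extracellular Sod3 rose (0.49, SE 0.08, adjusted p = 6.99e-05). Of 12 selenoprotein and selenium supply genes 3 rose and 3 fell, near the shares of all genes (22.0% and 20.5%), or 9 and 1 under the housekeeping scaling. Among them Selenon rose by 1.88, Sephs2 fell by 1.78, and the selenium carrier Selenop was at -0.22 (adjusted p = 0.0239), but at 0.31 and called higher under it. Of 17 other Nrf2 targets 6 rose and 7 fell (11 and 6 under that scaling), with Ugdh at 1.57 and Me1, which adipocytes use to supply NADPH for fat synthesis, at -3.85.

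Haem and iron genes around Hmox1 fell in 11 of 16 cases and rose in 2 (6 and 6 when scaled to housekeeping genes). The constitutive haem oxygenase Hmox2 fell by 0.36 (0.17 and not called under that scaling), the iron exporter Slc40a1 by 0.82 and the haemoglobin scavenger receptor Cd163, a macrophage gene, by 3.57. Blvrb, which reduces biliverdin, rose by 0.31 and the ferritin heavy chain Fth1 by 0.26. The Blvrb rise was 0.54 in SAT, and its difference of 0.07 in VAT was not called. Fth1 rose by 0.28 in SAT, while its difference of 0.24 in VAT did not pass (adjusted p = 0.0565). Blvrb differed by depot in AP (-0.62, adjusted p = 0.000714), and so did the ferroxidase Cp (1.59, adjusted p = 0.000204). Of 9 NADPH oxidase genes, which make superoxide, 3 rose and 4 fell (5 and 2 under that scaling), with Cyba at 1.11 and the phagocyte subunit Cybb at -4.03, while Duox1 rose by 0.73 and differed by depot in AP (-1.49). The Duox1 rise was 1.25 in SAT, and its difference of 0.21 in VAT was not called. Only 1 of 7 red cell markers, Slc4a1, had a probe set of its own and was not called (0.12, and 0.64 and called under that scaling), so haemoglobin was not analysed here.

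Of 12 genes that glucocorticoids induce or that act in their pathway, 7 rose and 2 fell in AP over both depots, or 9 and 1 under the housekeeping scaling. Dusp1 rose by 2.91 and Pdk4 fell by 1.61, and in AP Sgk1 was higher in VAT by 0.67 (SE 0.11). The Pdk4 difference was -2.79 in SAT and only -0.42, not called, in VAT. Dusp1 is also in the list of immediate early genes, where Fos rose most, by 6.12 (SE 0.10). Between the depots in AP, none of the 15 genes of that list was called higher in VAT. In that comparison 3 were called lower, or 1 under the housekeeping scaling. In AT 1 was higher in VAT (Hspa1b, 1.08, SE 0.09, adjusted p = 5.07e-06) and none lower.

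**Figure D4:**
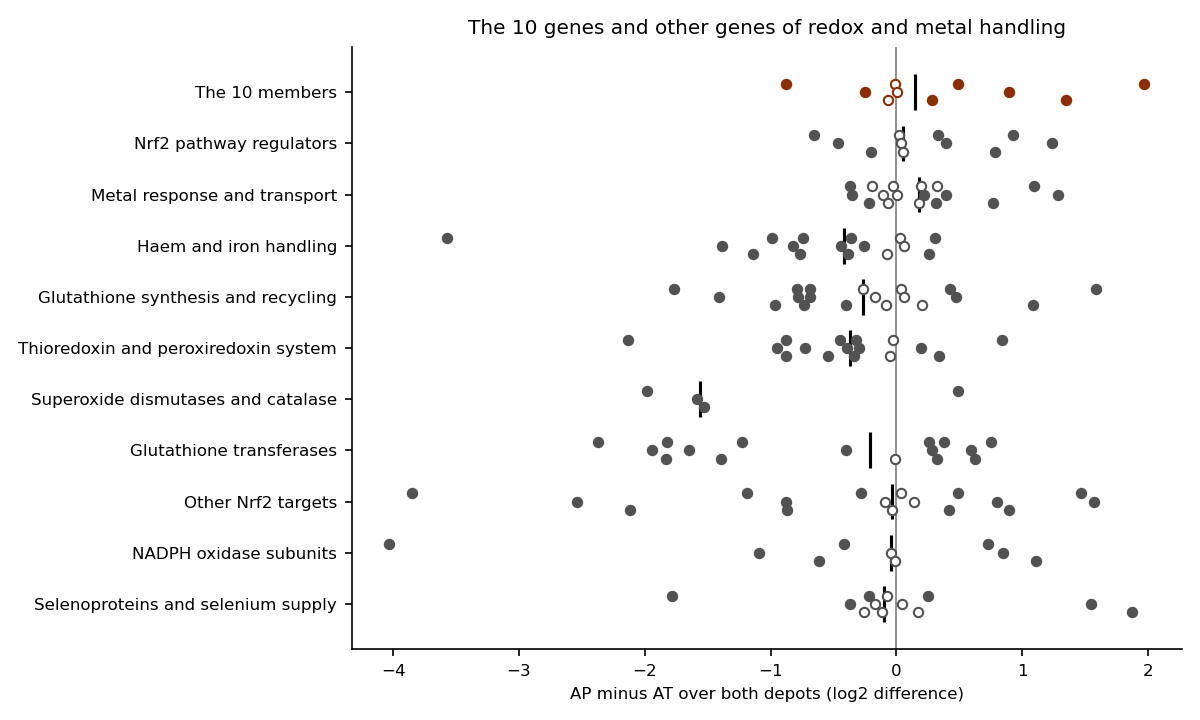
Each point is the fitted log2 difference of a gene in AP minus AT over both depots (horizontal axis), by list, with the 10 genes of this account in dark red on top; filled points passed an adjusted p of 0.05 and black bars are list medians. The 10 genes run from -0.88 for Gclm to 1.97 for Mt2, and the medians of the other lists drawn run from -1.56 for superoxide dismutases and catalase to 0.18 for metal response and transport.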

How the data were processed

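RNA of 12 samples in 4 groups was hybridised to a 1-colour Affymetrix array. The deposited values are log2 RMA intensities per probe set that the authors computed with Affymetrix Expression Console 1.3.0.187, per the submitters' processing notes. The log base was read from the method and the range of values (1.69 to 13.48), and the annotation library is not given in the sources used here. Of 41345 probe sets, 23521 name 1 gene, 1814 name several and were left out, and 16010 name none. For the 1082 genes with several probe sets the one with the highest mean was kept, which left 22180 genes. limma 3.58.1 in R 4.3.3 fitted a mean per group over all 12 arrays (8 residual and 6.84 prior degrees of freedom), with 2-sided tests and Benjamini-Hochberg adjustment over all genes in each of 6 contrasts. The fit was tested on simulated data with independent noise and few changed genes. Of the real genes 42.5% were called between AP and AT over both depots, so that test does not cover such broad differences. The number of arrays limits the precision. Deviations from the group means correlated at -0.28 to 0.12 between same-numbered replicates. Between AP from SAT and AP from VAT they correlated at 0.02, 0.12 and 0.09. With 3 arrays per group this check cannot exclude shared animals, and no pairing was used in the reported fit. The 10 genes and the 19 other lists (216 of 241 symbols measured) were chosen with earlier results of these data known. Named from the lists were the genes with the largest called rise and fall in AP against AT and between depots in AP, and those with a role next to one of the 10. Promoters are from RefSeq (GRCm38.p6). Alternatives were a replicate block, trend and robust options, only the groups compared, quantile and cyclic loess normalization, housekeeping scaling, a filter on dim genes, the mean over probe sets, and leaving out each array.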

Additional observations from a re-analysis of the deposited data

Results flagged for a closer look

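For Mt2 and 14 other genes described here the depot difference (VAT minus SAT, log2) differed between AP and AT by the limma test of the difference itself. Of all 22180 genes 476 (2.15%) passed that test. Cell type markers are not described here, though 2 of 8 endothelial, 2 of 8 pericyte and smooth muscle and 1 of 10 mesothelial markers passed. Those markers all had a positive value. For Mt2 the depot difference was -0.21 in AP and 1.33 in AT, so that AP less AT was -1.54 (SE 0.20, adjusted p = 0.00085). In the lists of redox, iron, stress and glucocorticoid genes, every gene that passed this test is given here, including Zbtb16, Hsd11b1, Gsta4, Gstt3, Gpx8, Txnrd3, Selenow and Hspa1b, which fall outside the rule for named genes and were chosen after their values were seen. In the iron list, the ferroxidase Cp had 1.59 in AP and -0.04 in AT (1.64, adjusted p = 0.0106). In the glutathione list, Ggt5, which cleaves glutathione conjugates, had 1.03 in AP and -0.26 in AT (1.28, adjusted p = 0.0124), and the peroxidase Gpx8 had 0.02 in AP and -1.15 in AT (1.17, adjusted p = 0.0058).

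Of the 16 glutathione transferases 1 passed in each direction: Gsta4 had 1.44 in AP and 0.26 in AT (1.18, adjusted p = 0.0068), and Gstt3 had -0.03 in AP and 0.72 in AT (-0.75, adjusted p = 0.0380). The thioredoxin reductase Txnrd3 had -0.39 in AP and 0.34 in AT (-0.73, adjusted p = 0.0388), and the selenoprotein Selenow had -0.30 in AP and 0.31 in AT (-0.61, adjusted p = 0.0463). Duox1, a hydrogen peroxide generator, had -1.49 in AP and -0.45 in AT (-1.04, adjusted p = 0.0120). Of the 12 glucocorticoid-induced genes 3 passed with a positive value and 1 with a negative one. Pdk4 had 0.62 in AP and -1.75 in AT (2.38, adjusted p = 0.0154), Sgk1 had 0.67 in AP and -0.20 in AT (0.87, adjusted p = 0.0101), Hsd11b1 had 0.66 in AP and -0.32 in AT (0.98, adjusted p = 0.0393), and Zbtb16 had -0.38 in AP and 0.79 in AT (-1.18, adjusted p = 0.0306). Of the 15 immediate early and dissociation stress genes, the heat shock gene Hspa1b passed, with -0.49 in AP and 1.08 in AT (-1.56, adjusted p = 2.61e-05). Under the housekeeping scaling Gstt3, Txnrd3, Selenow, Duox1 and Zbtb16 were no longer called lower, as their lists had 0 negative calls. Mt2 kept its call, and the immediate early list kept 1 negative call. The positive counts of the transferase and glucocorticoid lists stayed at 1 and 3, and the thioredoxin list gained 1. Of all genes 90 were called with a negative value, against 257 in the reported fit, and 526 with a positive one. The median of all genes was 0.24. Lbp, one of the 3 genes with a profile nearest to that of Mt2, had 0.07 in AP and 1.6 in AT (-1.52, adjusted p = 0.0206), which is a description, since Lbp was chosen by that likeness.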

How the results depend on the processing

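Of 1174 values of the 10 genes under alternatives, 1091 kept their direction and their side of the threshold, 18 lost a call, 19 gained one and 46 changed sign. With a replicate block the numbers of the 10 genes called stayed at 6 in SAT, 4 in VAT and 7 over both depots for AP minus AT, 0 in AP and 2 in AT for VAT minus SAT, and 1 for the interaction, and no call or direction of a gene changed. Trend and robust options called 2 of the 10 in the interaction, and cyclic loess 1 between depots in AP. Fitting only the groups compared called 601 of all genes between depots in AT, against 1009; that fit was not run over both depots or for the interaction, where it would be the same fit. Scaling to housekeeping genes called 15563 genes in SAT, 19198 in VAT and 19692 over both depots, 9 of the 10 in VAT, all higher, so that Gclm was no longer called lower there, and 1 between depots in AT. Signs changed under it for Txnrd1 (0.22 in SAT, 0.33 in VAT, 0.28 over both), Slc7a11 (0.37 in SAT), Hmox1 (0.52 in VAT, 0.46 over both) and Nqo1 (0.48 in VAT, 0.51 over both), for Mt1 between depots in AP (0.02), for Gclm (-0.0567), Srxn1 (-0.0433) and Slc7a11 (-0.13) between depots in AT, and for the interaction of Hmox1 (0.12), Gclc (0.18) and Txnrd1 (0.11). Quantile normalization turned Slc7a11 in SAT (0.0076), Nqo1 between depots in AP (-0.0106) and the Gclc interaction (0.0231). Cyclic loess turned the same Nqo1 difference (-0.0276) and the Gclc interaction (0.0252), and the mean over probe sets turned Slc7a11 between depots in AT (-0.0450). The cause of these changes was not tested.

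Leaving out each array in turn gave 5 to 6 of the 10 called in SAT, 4 to 5 in VAT, 6 to 7 over both depots, 0 to 0 between depots in AP, 1 to 3 in AT and 1 to 1 for the interaction, and 660 to 1026 of all genes in AT and 264 to 626 for the interaction. The count of 1 in AT came without replicate 2 of AT from SAT or replicate 2 or 3 of AT from VAT, and that of 660 without replicate 1 of AT from SAT. All genes called in the interaction fell to 264 without replicate 1 and 309 without replicate 2 of AP from SAT, 279 when replicate 2 of AP from VAT was left out and 293 when replicate 1 of AT from SAT was, against 476 with all arrays. Values that changed sign ranged, for AP minus AT, from -0.12 to 0.06 for Slc7a11 in SAT, -0.24 to 0.0067 for Hmox1 in VAT, and over both depots -0.13 to 0.0092 for Hmox1, -0.0683 to 0.0442 for Nqo1 and -0.0342 to 0.0533 for Slc7a11. Between depots in AP they ranged from -0.16 to 0.0183 for Mt1, -0.11 to 0.12 for Nqo1, -0.0033 to 0.17 for Slc7a11 and -0.0150 to 0.10 for Gpx3. In AT they ranged from -0.0150 to 0.18 for Gclm, -0.0117 to 0.24 for Srxn1 and -0.05 to 0.05 for Slc7a11. For the interaction they ranged from -0.27 to 0.0067 for Hmox1, -0.17 to 0.0133 for Gclc and -0.0133 to 0.16 for Slc7a11. The rises of Mt1, Mt2 and Gpx3 in AP kept their calls in every depot and alternative run.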
